A study of Homo sapiens with 12 samples.

Results

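The genes described here encode 9 glycoproteins of the cell surface that carry mucin-type O-glycans or are otherwise heavily glycosylated, together with galectin 3, a lectin that binds glycans. They were chosen by name for their protein class, with earlier results of these data known, and all 10 (MUC1, MUC13, PODXL, SDC1, SDC4, CD44, DAG1, CD55, CD59 and LGALS3) had an identifier among the 59424 genes listed for each of the cell lines. RNA-seq was performed in prostate cancer cell lines in which the level of the glycosyltransferase GALNT7 had been altered by lentiviral transduction. CWR22Rv1 cells carried either a control short hairpin RNA (shControl) or one against GALNT7 (GALNT7 KD), and DU145 cells carried either a control vector (OEControl) or one for overexpression of GALNT7 (GALNT7 OE). There were 3 libraries in each of these 4 groups, labelled as biological replicates and 12 in all. Both members of each pair were stable transduced lines, so that the control lines had also been infected. The sources used here do not say how far replicate cultures were kept apart, so p-values measure the spread between these libraries.

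Mucin-type O-glycosylation starts in the Golgi, where enzymes of the GALNT family attach N-acetylgalactosamine to serine or threonine. GALNT7 acts mostly on peptides that already bear such a sugar. Dense clusters of these glycans stiffen mucins and sialomucins, and they change adhesion, shedding and recognition by lectins such as galectins. GALNT7 acts on proteins, whereas the values below are RNA levels.

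The check of the labels held in every library. GALNT7 had normalised counts of 862, 1042 and 1093 in shControl and 481, 501 and 400 in GALNT7 KD cells. In DU145 cells it had 1051, 928 and 913 in OEControl and 1988, 2221 and 2334 in GALNT7 OE. The groups did not overlap in either line. GALNT7 fell by 1.11 on the log2 scale in knockdown (limma adjusted p = 0.0051) and rose by 1.18 in overexpression (limma adjusted p = 8e-05). A normalised count is the number of reads on a gene divided by a factor for the size of the library. The CWR22Rv1 libraries held 18364512 to 22264533 reads, and the normalised counts of the DU145 libraries summed to 22119113 to 22765440. All 4 epithelial markers (KRT8, KRT18, EPCAM and CDH1) were present in both lines. KLK3, the prostate-specific antigen, was read in every CWR22Rv1 library and was at 0 in all DU145 libraries. Some markers moved with the groups. In GALNT7 KD cells EPCAM (422 ± 16.0 to 258 ± 27.9) and KRT18 (6199 ± 118 to 4877 ± 413) fell among the 4 epithelial markers (SD, n = 3). Of the prostate markers, KLK3 (392 ± 46.3 to 808 ± 45.0) and KLK2 rose and TMPRSS2 (261 ± 41.7 to 90.6 ± 16.7) fell. In GALNT7 OE cells EPCAM rose (372 ± 19.2 to 575 ± 42.8) and CDH1 fell (2016 ± 128 to 1362 ± 235). In GALNT7 OE cells the sum of 4 leukocyte markers went from 2583 to 2758 down to 986 to 1121, almost wholly through CD68, with CD3E at 0 and PTPRC at most 2.10. The sum of 4 fibroblast markers went from 290 to 438 down to 56.4 to 169, almost wholly through COL1A1 (334 ± 73.6 to 90.6 ± 55.4). DCN was at most 7.05 in any DU145 library, and PDGFRA had means of 6.09 and 5.68. The part of these shifts in the results below was not tested. In such bulk samples, fewer cells that express a gene and less RNA per cell cannot be told apart.

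RNA was called lower for PODXL in both comparisons and for SDC4, CD44 and LGALS3 in GALNT7 OE cells, with the call of LGALS3 resting on single libraries. Every gene with a mean of 5 or more was tested with limma on the log2 scale, after 1 was added to each value, and was called at an adjusted p under 0.05 over all genes tested in that line. In knockdown 9 of the 10 genes could be tested, and 1 was called, PODXL, which was lower. Of all 17906 genes tested in CWR22Rv1, 9.06% were called, made up of 3.79% called lower and 5.28% called higher. In overexpression 9 of the 10 could be tested, and 4 were called, all lower (SDC4, CD44, PODXL and LGALS3). Here 43.5% of 18705 genes were called, made up of 20.5% called lower and 22.9% called higher, so that the share of glycoprotein genes called as a whole was close to that of all genes. The median log2 fold change of the tested members was -0.05 in knockdown, against -0.01 over all genes. It was -0.38 in overexpression, against -0.01 over all genes. The libraries of the groups did not overlap for 5 of the 9 members in knockdown, where this held for 32.5% of all genes, and for 4 of the 9 in overexpression, where it held for 55.3%.

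**Figure D1:**
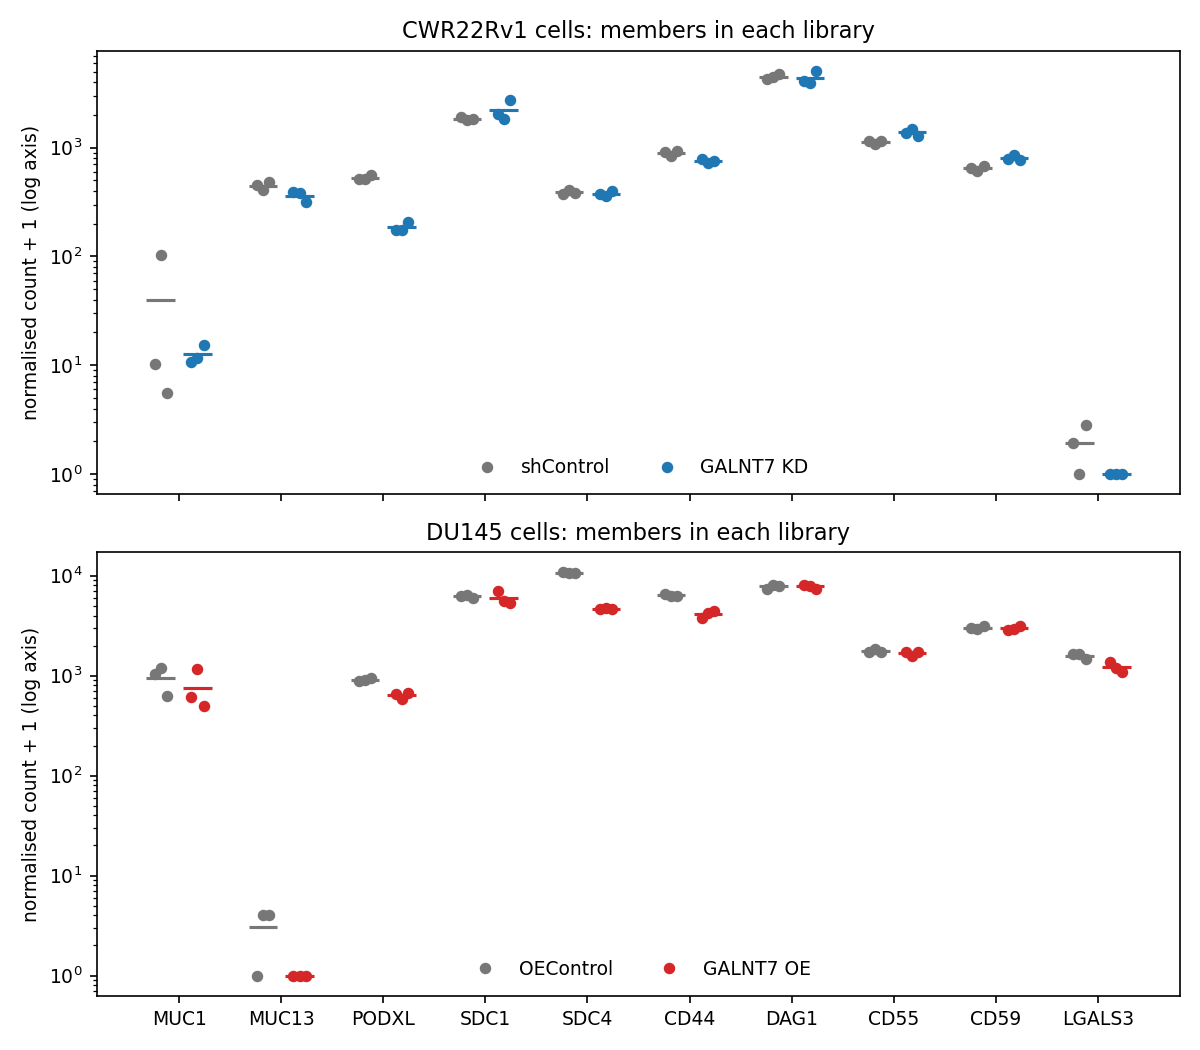
Normalised count + 1 of the 10 genes in each of the 12 libraries, on a log axis; each point is a library, each short line the mean of 3, and zeros lie at the bottom. PODXL is lower in the 3 GALNT7 KD libraries and in the 3 GALNT7 OE libraries than in every control library of its line, MUC1 spreads widely in shControl, and LGALS3 and MUC13 are near 0 in opposite lines.

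Of the mucins, MUC1 and MUC13 are transmembrane proteins whose long extracellular domains carry dense O-glycans. MUC1 (chr1:155185824-155192916, minus strand, GRCh38) had 9.33, 102 and 4.58 normalised counts in shControl and 9.67, 10.7 and 14.4 in GALNT7 KD. The second shControl library stood alone, and the others of both groups overlapped. The log2 fold change was -0.54 with a 95% interval of -2.97 to 1.88 (limma adjusted p = 0.79), and it turned to 0.71 without the second shControl library (limma adjusted p = 0.4). On the recovered reads it was -1.73 with both edgeR (adjusted p = 0.374) and DESeq2 (adjusted p = 0.34). The genes next to MUC1 did not share this excess. KRTCAP2 had 2954, 2896 and 2970 and MTX1 had 2162, 1975 and 2106 in the 3 shControl libraries. In that library 11 genes reached at least 50 and at least 5 times the value of every other CWR22Rv1 library, and the 6 CWR22Rv1 libraries each had 5 to 11 such genes. In DU145 cells MUC1 was abundant, at 1042, 1185 and 626 in OEControl and 604, 1165 and 496 in GALNT7 OE. The groups overlapped, with the second library of each group the highest. The log2 fold change of -0.38 had an interval of -1.24 to 0.47 (limma adjusted p = 0.43). The intervals of MUC1 were thus wide in both lines.

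MUC13 (chr3:124905442-124953819, minus strand), an epithelial mucin best known from the gut, was present in CWR22Rv1 cells and close to absent in DU145 cells. It had 450, 405 and 479 normalised counts in shControl and 393, 379 and 313 in GALNT7 KD. The groups did not overlap, although the lowest control was only just above the highest knockdown library. The log2 fold change was -0.30 with an interval of -0.59 to -0.01, which did not pass the test (limma adjusted p = 0.17). In DU145 cells MUC13 had 0, 3.07 and 3.02 in OEControl and was listed at 0 in all 3 GALNT7 OE libraries, and no fold is given. Other mucins were sparse. Calls in this and the following lists of related genes are to be read against the shares of all genes called lower and higher, 3.79% and 5.28% in knockdown and 20.5% and 22.9% in overexpression. Of 9 further transmembrane mucins, 1 could be tested in CWR22Rv1 and was not called. In DU145 4 could be tested, of which 1 fell, MUC3A, from 176 ± 7.71 to 94.7 ± 4.83 (log2 fold change -0.89, limma adjusted p = 0.00093). Of 6 secreted, gel-forming mucins, none reached the mean of 5 in DU145. In CWR22Rv1 MUC5AC alone did, and it fell from 69.3 ± 4.73 to 35.4 ± 5.37 (log2 fold change -0.96, limma adjusted p = 0.027).

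PODXL (chr7:131500262-131558217, minus strand) encodes podocalyxin, a sialomucin of the CD34 family first described on the filtration cells of the kidney, where its charge keeps cell surfaces apart. It had 514, 510 and 564 normalised counts in shControl and 175, 173 and 207 in GALNT7 KD cells. All knockdown libraries were far below all controls. PODXL fell by 1.52 on the log2 scale (SE 0.11, 95% interval -1.78 to -1.25, limma adjusted p = 0.0011), a level 65.1% lower, and it ranked 54th by p among the 17906 genes. In DU145 cells, where the opposite change of GALNT7 was made, it had 882, 911 and 948 in OEControl and 654, 584 and 670 in GALNT7 OE. Again no libraries overlapped. It fell by 0.52 (SE 0.08, interval -0.71 to -0.34, limma adjusted p = 0.0019), or 30.4%. PODXL was the only one of the 8 members tested in both comparisons to be called lower in both. This was so for 0.881% of the 16124 genes tested in both, while 1.72% were called higher in both. Leaving out any library kept the log2 fold change between -1.60 and -1.47 in knockdown and between -0.56 and -0.46 in overexpression. A gene annotated over PODXL on the other strand, AC008264.1, reached at most 1.00 in any library.

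Among 6 related sialomucins, CD164, a sialomucin of endosomes and the surface, was called lower in both comparisons as well, but by little. It went from 5896 ± 87.4 to 5228 ± 162 in knockdown (log2 fold change -0.17, limma adjusted p = 0.049). In overexpression it went from 4603 ± 6.37 to 4104 ± 161 (-0.17, limma adjusted p = 0.02). PODXL2 (endoglycan), the closest relative of PODXL, had 2481 ± 41.0 in shControl and 2339 ± 132 in GALNT7 KD (-0.09, limma adjusted p = 0.4). In DU145 cells PODXL2 fell from 2432 ± 67.2 to 1631 ± 90.2 (-0.58, limma adjusted p = 0.00034). In all, 1 of 3 tested sialomucins fell in knockdown and 3 of 4 in overexpression, with median log2 fold changes of -0.09 and -0.59. The genes whose levels followed PODXL most closely over the 12 libraries, each centred on the controls of its line, were BET1L (Pearson r = 0.993), ATN1 (0.984) and KIAA0895L (0.979). These correlations describe 12 libraries of 4 groups and carry no test.

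**Figure D2:**
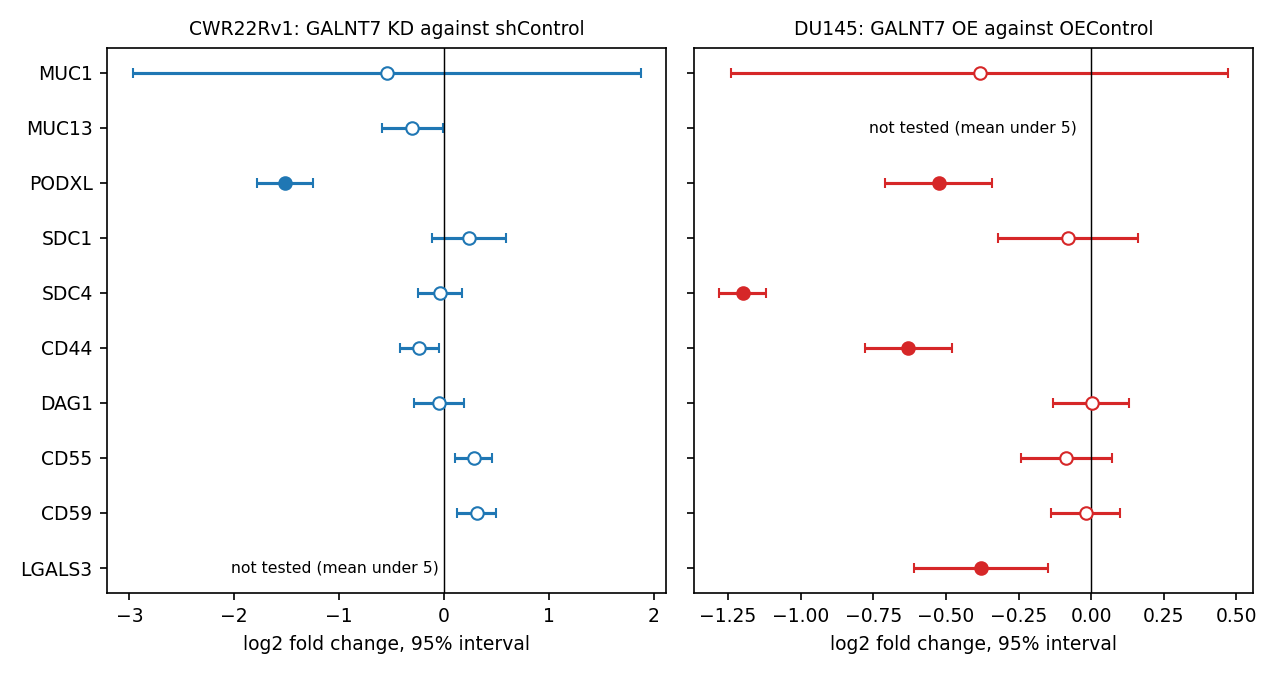
Log2 fold change of each gene with its 95% interval from limma, GALNT7 KD against shControl on the left and GALNT7 OE against OEControl on the right, on separate scales; filled points have an adjusted p under 0.05. PODXL lies at -1.52 and -0.52, SDC4 at -0.04 and -1.20, and the intervals of MUC1 are the widest in both panels.

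SDC1 and SDC4 are syndecans, transmembrane proteoglycans that carry heparan sulphate and serve as coreceptors for growth factors and matrix. SDC4 (chr20:45325288-45348424, minus strand), found in focal adhesions, had the largest fall of the tested members in DU145 cells. It had 10804, 10586 and 10604 normalised counts in OEControl and 4635, 4723 and 4597 in GALNT7 OE cells. The libraries within each group lay very close together and the groups were far apart. SDC4 fell by 1.20 on the log2 scale (SE 0.03, interval -1.28 to -1.12, limma adjusted p = 2.9e-06), a level 56.4% lower, and ranked 29th by p among the 18705 genes. In CWR22Rv1 cells SDC4 had 373, 408 and 382 in shControl and 374, 362 and 395 in GALNT7 KD. These groups overlapped, and the log2 fold change was -0.04 with an interval of -0.25 to 0.17 (limma adjusted p = 0.82). The 3 genes most like SDC4 across the 12 libraries were NAMPT (Pearson r = 0.996), ELF3 (0.995) and DUSP4 (0.994). In overexpression they had log2 fold changes of -1.36, -2.05 and -1.37, and in knockdown of -0.03, 0.05 and 0.05.

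SDC1 (chr2:20200797-20225433, minus strand), the main syndecan of epithelia, had 1914, 1777 and 1845 normalised counts in shControl and 2056, 1813 and 2764 in GALNT7 KD. The third knockdown library was high and the rest overlapped (log2 fold change 0.24, interval -0.11 to 0.59, limma adjusted p = 0.36). In DU145 cells it had 6333, 6431 and 6024 in OEControl and 6985, 5593 and 5318 in GALNT7 OE. The first GALNT7 OE library was the highest of all 6 and the other two were the lowest. The log2 fold change was -0.08 with an interval of -0.32 to 0.16 (limma adjusted p = 0.55), and -0.20 without the first GALNT7 OE library (limma adjusted p = 0.021). Of 8 other syndecans and glypicans, all could be tested in knockdown and 0 were called by limma, although 2 (GPC3 and SDC3) had an unadjusted p under 0.05. On the reads, edgeR called 0 of them and DESeq2 called 1, GPC3, which had 319 ± 43.8 in shControl and 211 ± 33.4 in GALNT7 KD. In overexpression 3 of 6 rose and 2 fell. Of the 3 that rose, 2 were low, with means of 5.89 and 7.32 in OEControl and 28.1 and 41.7 in GALNT7 OE. SDC3, a neural syndecan, fell from 2773 ± 50.6 to 1992 ± 141 (log2 fold change -0.48, limma adjusted p = 0.0011). GPC1, a lipid-anchored heparan sulphate proteoglycan, rose from 5984 ± 143 to 8175 ± 1352 (0.44, limma adjusted p = 0.017). GPC2 fell from a mean of 102 to 59.5 (-0.76, SE 0.21, limma adjusted p = 0.023).

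The sequences just before the start sites of SDC4, SDC1 and DAG1 are shown because these are 3 abundant surface genes of DU145 cells of which 1 fell and the others were not called, and that of MUC13 because this gene was read in CWR22Rv1 and hardly in DU145 cells. They are the 250 bases before the RefSeq start on GRCh38.p14, 5′ to 3′, and capitals mark matches on either strand to 8 short motifs: the TATA box (TATAAA), GC box (GGGCGG), AP-1 site (TGANTCA), E-box (CACGTG), STAT site (TTCNNNGAA), CCAAT box (CCAAT), FOXO site (TGTTTAC) and the NF-kB consensus.
SDC4, chr20:45348425-45348674, minus strand: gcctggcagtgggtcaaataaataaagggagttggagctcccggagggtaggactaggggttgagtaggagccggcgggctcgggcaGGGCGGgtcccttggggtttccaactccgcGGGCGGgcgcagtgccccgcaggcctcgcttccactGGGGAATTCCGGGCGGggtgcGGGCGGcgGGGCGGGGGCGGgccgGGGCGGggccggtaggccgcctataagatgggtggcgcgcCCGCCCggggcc
SDC1, chr2:20225476-20225725, minus strand: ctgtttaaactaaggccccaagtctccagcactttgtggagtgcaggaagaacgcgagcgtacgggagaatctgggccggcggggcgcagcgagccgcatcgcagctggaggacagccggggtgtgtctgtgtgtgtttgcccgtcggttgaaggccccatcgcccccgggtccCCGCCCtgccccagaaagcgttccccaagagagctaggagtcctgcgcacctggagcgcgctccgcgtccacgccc
DAG1, chr3:49469882-49470131, plus strand: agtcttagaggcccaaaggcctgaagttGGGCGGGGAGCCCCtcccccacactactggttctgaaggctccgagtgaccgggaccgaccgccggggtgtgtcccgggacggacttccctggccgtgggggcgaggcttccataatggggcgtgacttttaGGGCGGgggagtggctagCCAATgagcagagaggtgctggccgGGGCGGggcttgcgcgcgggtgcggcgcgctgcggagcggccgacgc
MUC13, chr3:124934752-124935001, minus strand: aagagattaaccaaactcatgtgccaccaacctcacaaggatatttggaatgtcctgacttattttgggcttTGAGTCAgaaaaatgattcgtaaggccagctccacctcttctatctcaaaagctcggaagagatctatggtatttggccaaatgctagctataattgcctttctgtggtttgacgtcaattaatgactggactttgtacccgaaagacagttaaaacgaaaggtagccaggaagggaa
The SDC4 window had 8 GC boxes, 26 CpG dinucleotides and 73.6% G and C, against medians of 11 CpG and 58.0% over 27303 promoters. It also held an NF-kB match, GGGGAATTCC, from 97 to 88 bases before the start, next to a GC box. SDC1 had 1 GC box and 66.4% G and C. DAG1 had 3 GC boxes, a CCAAT box and an NF-kB match, GGGGAGCCCC, which overlaps a GC box. MUC13 had 41.6% G and C, 5 CpG dinucleotides and an AP-1 match, TGAGTCA, from 178 to 172 bases before the start. Over all promoters 42.3% held a GC box, 33.0% a CCAAT box and 5.05% an NF-kB match. The AP-1 site was found in 6.6%, the TATA box in 11.1%, the E-box in 6.49%, the STAT site in 6.78% and the FOXO site in 2.98%. Of the 9 members with a RefSeq window, 7 had a GC box and 2 an NF-kB match. A match describes letters only. The SDC4 and SDC1 windows lie outside the annotated genes and hold no exon. The DAG1 and MUC13 windows lie within the annotated genes but hold no exon. Of the windows counted but not shown, those of CD44 and CD55 are exon over all 250 bases and that of LGALS3 over 208. These lie within the annotated genes, so their GC boxes are not all before the annotated start.

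CD44 (chr11:35138870-35232402, plus strand) is the main receptor for hyaluronan, and its O-glycosylated stem varies with splicing, which gene counts do not resolve. It had 6624, 6275 and 6304 normalised counts in OEControl and 3787, 4222 and 4427 in GALNT7 OE cells. Every GALNT7 OE library was below every control. CD44 fell by 0.63 on the log2 scale (SE 0.06, interval -0.78 to -0.48, limma adjusted p = 0.00033), or 35.2%. In CWR22Rv1 cells it had 909, 829 and 933 in shControl and 793, 724 and 748 in GALNT7 KD. The groups did not overlap here either, but the log2 fold change of -0.24 (interval -0.42 to -0.05) did not pass the test (limma adjusted p = 0.11). The antisense gene CD44-AS1 reached at most 1.01 in any library. RHOU and TRIB1 (both Pearson r = 0.981) and VGLL4 (0.976) followed CD44 most closely.

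Genes that work with CD44 differed in direction in GALNT7 OE cells, where 7 of 12 rose and 3 fell, with a median log2 fold change of 0.20. HMMR, another hyaluronan-binding protein, rose from 482 ± 35.1 to 1339 ± 149 (log2 fold change 1.47, limma adjusted p = 6.6e-05). ESRP1 and ESRP2, epithelial splicing factors that act on CD44 transcripts, rose too. ESRP1 went from 15.9 ± 1.54 to 87.7 ± 23.5 (2.36, limma adjusted p = 0.00039) and ESRP2 from 348 ± 23.4 to 613 ± 76.1 (0.81, limma adjusted p = 0.0014). MMP14, a membrane protease that cleaves CD44, fell from 5049 ± 462 to 2268 ± 58.9 (-1.15, limma adjusted p = 4e-05). In knockdown limma called 1 of 11. This was MSN (moesin), which links CD44 to actin and rose from a mean of 276 to 627 (1.18, SE 0.08, limma adjusted p = 0.00087). DESeq2 on the reads also called ESRP2, which had 1249 ± 68.6 in shControl and 951 ± 114 in GALNT7 KD (limma adjusted p = 0.056).

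DAG1 (chr3:49468703-49535618, plus strand) encodes both subunits of dystroglycan, whose mucin-like domain carries the glycan that binds laminin. It was not called in either line. It had 4265, 4469 and 4733 normalised counts in shControl and 4095, 3934 and 5070 in GALNT7 KD (log2 fold change -0.05, interval -0.29 to 0.19, limma adjusted p = 0.81). In DU145 cells it had 7400, 8121 and 7920 in OEControl and 8093, 7982 and 7390 in GALNT7 OE (0.00, interval -0.13 to 0.13, limma adjusted p = 0.99). The groups overlapped in both lines. The interval in DU145 cells covers the spread of the libraries under the deposited scaling only. After upper-quartile rescaling the log2 fold change there was -0.10 (limma adjusted p = 0.189). Of its complex, 2 of 5 tested genes rose in knockdown. SGCB (beta-sarcoglycan) went from 494 ± 38.8 to 720 ± 27.8 (0.54, limma adjusted p = 0.015) and SGCE from 820 ± 104 to 1117 ± 46.2 (0.45, limma adjusted p = 0.041). Both fell in overexpression, SGCB by 0.43 (limma adjusted p = 0.0022) and SGCE by 0.53 (limma adjusted p = 0.0017), whereas UTRN (utrophin) rose from 1431 ± 124 to 2603 ± 137 (0.87, limma adjusted p = 0.00021). Of the enzymes that build the laminin-binding glycan, 1 of 13 rose and 1 fell in knockdown, and 3 of 12 rose and 3 fell in overexpression, with medians of -0.10 and 0.02. RXYLT1, a xylosyltransferase, was called in both, lower in knockdown (818 ± 11.9 to 537 ± 47.5, limma adjusted p = 0.01) and higher in overexpression (352 ± 0.837 to 508 ± 34.9, limma adjusted p = 0.0024).

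CD55 and CD59 are lipid-anchored inhibitors of complement. CD55 (chr1:207321376-207386804, plus strand), which speeds the decay of the convertases and has an O-glycosylated stalk, had 1140, 1079 and 1161 normalised counts in shControl and 1375, 1474 and 1282 in GALNT7 KD cells. All knockdown libraries were above all controls. The log2 fold change of 0.29 (interval 0.11 to 0.46) narrowly missed the threshold (limma adjusted p = 0.06). It passed without the third GALNT7 KD library (limma adjusted p = 0.049) and with DESeq2 on the reads (adjusted p = 0.0099). CD59 (chr11:33703010-33736491, minus strand), which blocks the membrane attack complex, had 642, 612 and 684 in shControl and 786, 851 and 772 in GALNT7 KD. Again no libraries overlapped, with a log2 fold change of 0.31 (interval 0.12 to 0.50, limma adjusted p = 0.059). Its adjusted p was 0.015 with DESeq2 and 0.0499 with limma on genes with a mean of at least 20.

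In DU145 cells neither inhibitor was called. CD55 had 1736, 1865 and 1736 in OEControl and 1725, 1569 and 1738 in GALNT7 OE (log2 fold change -0.09, interval -0.24 to 0.07, limma adjusted p = 0.32). CD59 had 3019, 2956 and 3122 in OEControl and 2894, 2961 and 3138 in GALNT7 OE (-0.02, interval -0.14 to 0.10, limma adjusted p = 0.81). Both pairs of groups overlapped. These values depended on the scaling. Upper-quartile rescaling gave -0.19 for CD55 (limma adjusted p = 0.055) and -0.12 for CD59 (limma adjusted p = 0.097). Median centring gave -0.06 and 0.01. Other regulators of complement differed more. All 6 that could be tested of 7 were lower in GALNT7 OE cells, with a median log2 fold change of -0.96, against -0.01 over all genes. SERPING1 (the C1 inhibitor) fell from 2130 ± 59.0 to 539 ± 33.5 (log2 fold change -1.98, limma adjusted p = 4.4e-06) and VTN (vitronectin) from 337 ± 13.7 to 36.3 ± 22.2 (-3.38, limma adjusted p = 0.0011). CD46, the other widely expressed membrane regulator, fell from 8905 ± 85.8 to 5580 ± 317 (-0.68, limma adjusted p = 7.1e-05). CLU (clusterin) fell from 10056 ± 332 to 6416 ± 443 (-0.65, limma adjusted p = 0.00017). In knockdown 2 of 3 tested regulators rose, CLU, from 13059 ± 184 to 22884 ± 244 (0.81, limma adjusted p = 5.3e-05), and CD46, from 4944 ± 88.1 to 5803 ± 207 (0.23, limma adjusted p = 0.025). Called in opposite directions were 2 of the 3 regulators tested in both lines, and 2.88% of all genes tested in both.

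LGALS3 (chr14:55124110-55145413, plus strand) encodes galectin 3, which binds galactose-containing glycans on mucins and other surface proteins. In CWR22Rv1 cells it was essentially undetected. The 6 libraries together held 3 reads on it in all, with 1, 0 and 2 in shControl and 0 in each GALNT7 KD library. A count of 0 allows up to 3 reads, or 2.89 to 3.20 normalised counts per GALNT7 KD library, and covers counting error only. In DU145 cells it was abundant, at 1657, 1637 and 1475 in OEControl and 1377, 1204 and 1098 in GALNT7 OE. The groups did not overlap, but the lowest control was close to the highest GALNT7 OE library. LGALS3 fell by 0.38 on the log2 scale (SE 0.10, interval -0.61 to -0.15, limma adjusted p = 0.018), or 22.9%. This call was lost without the first OEControl library (limma adjusted p = 0.061), without the second (0.06) and without the second GALNT7 OE library (0.052). CD68, which marks macrophages and also occurs in other cells, was called lower too, from 2675 ± 89.2 to 1035 ± 73.3 (limma adjusted p = 1.5e-05). So were 20.5% of all genes tested in DU145. The leukocyte markers CD3E and PTPRC were at 0 and at most 2.10 there, and a link between CD68 and LGALS3 was not tested.

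Of the other galectins that could be tested, 3 in knockdown and 4 in overexpression, limma called LGALS1 alone in either comparison. In knockdown DESeq2 on the reads also called LGALS8, which had 2763 ± 182 in shControl and 3196 ± 51.0 in GALNT7 KD (limma adjusted p = 0.078). LGALS1 (galectin 1) rose in both comparisons, from 1584 ± 112 to 2074 ± 114 in knockdown (log2 fold change 0.39, limma adjusted p = 0.026) and from 3166 ± 229 to 5954 ± 399 in overexpression (0.91, limma adjusted p = 0.00011). LGALS3BP, a secreted glycoprotein that galectin 3 binds, fell from 2637 ± 60.0 to 163 ± 37.2 in GALNT7 OE cells (-4.03, limma adjusted p = 8.2e-06). It was low in CWR22Rv1 cells, with 44.0 ± 14.2 in shControl and 42.7 ± 13.0 in GALNT7 KD (-0.04, limma adjusted p = 0.96).

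**Figure D3:**
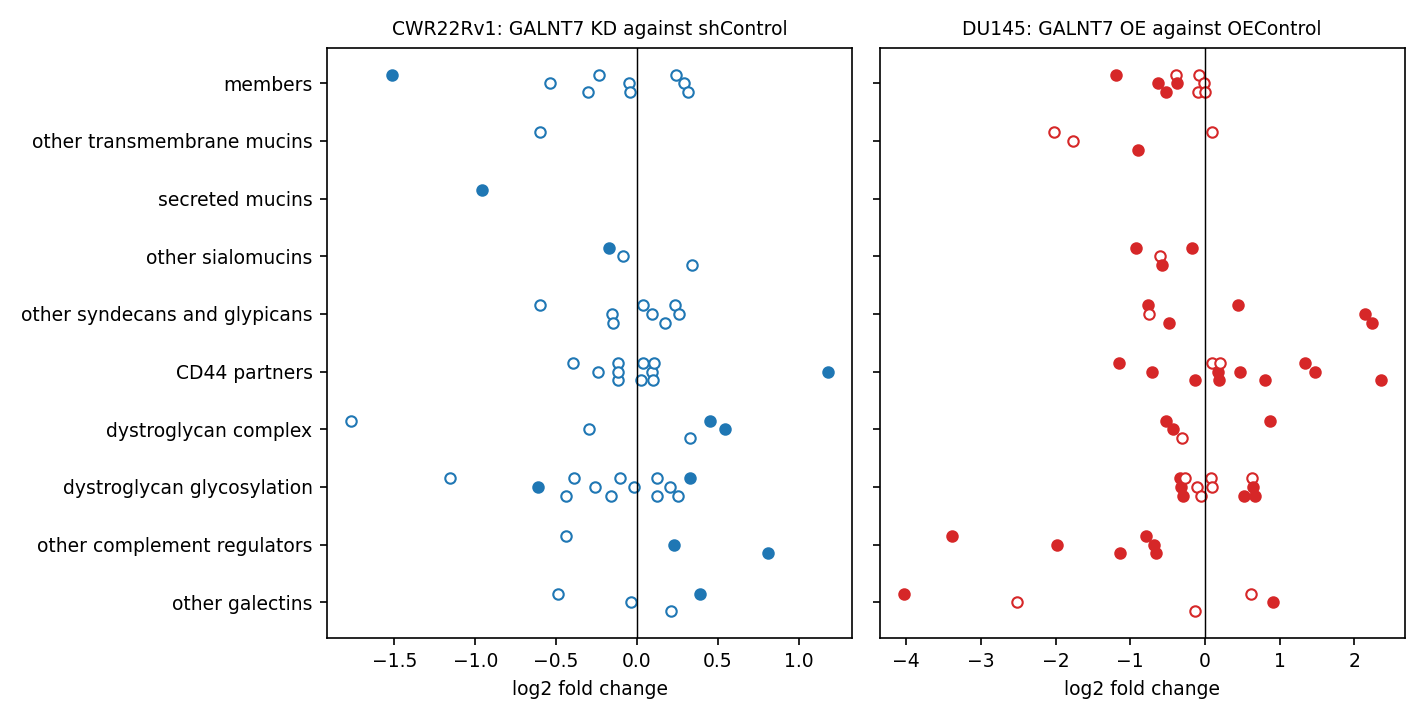
Log2 fold change of the tested members and of the related genes in each list, GALNT7 KD against shControl on the left and GALNT7 OE against OEControl on the right, with separate scales; each point is a gene and filled points have an adjusted p under 0.05. All 6 tested complement regulators lie to the left of 0 in GALNT7 OE cells, down to -3.38, and LGALS3BP is the leftmost point at -4.03.

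Levels of different genes were compared as normalised counts per kb of exon, within a cell line only. In shControl cells DAG1 was the most abundant of the 10, at 648 per kb, followed by SDC1 at 513, CD55 at 191, SDC4 at 148, MUC13 at 127, CD44 at 89.0, PODXL at 74.2 to 82.0, CD59 at 62.4, MUC1 at 8.17 and LGALS3 at 0.384. No neighbours in this order overlapped in their 3 libraries. In GALNT7 KD cells DAG1 and SDC1 overlapped, as did CD59 and CD44, and PODXL stood at 26.9 per kb. In OEControl cells the order was led by SDC4, at 4081 per kb, above 99.2% of the genes tested in that line. SDC1 at 1742, DAG1 at 1129, LGALS3 at 663 and CD44 at 640 came next, of which the last 2 overlapped. CD55 at 301 and CD59 at 293 overlapped, as did MUC1 at 202 and PODXL at 133, and MUC13 was last at 0.580. In GALNT7 OE cells SDC4 at 1780 per kb and SDC1 at 1659 overlapped.

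Summed per kb over the 10 genes, the level was 1865 ± 47.5 in shControl and 1909 ± 206 in GALNT7 KD (SD, n = 3), a difference within the spread of the libraries. In DU145 cells the sums were 9253, 9309 and 8990 in OEControl and 6634, 6324 and 6007 in GALNT7 OE. The groups did not overlap, and the mean was 31.2% lower. With 3 libraries against 3, an exact permutation test cannot give a two-sided p below 0.1. SDC4 alone made up 80.4% of the difference, CD44 7.88% and LGALS3 5.29%. SDC4 went from 44.4% of the sum to 28.2%, and SDC1 from 19.0% to 26.2%.

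**Figure D4:**
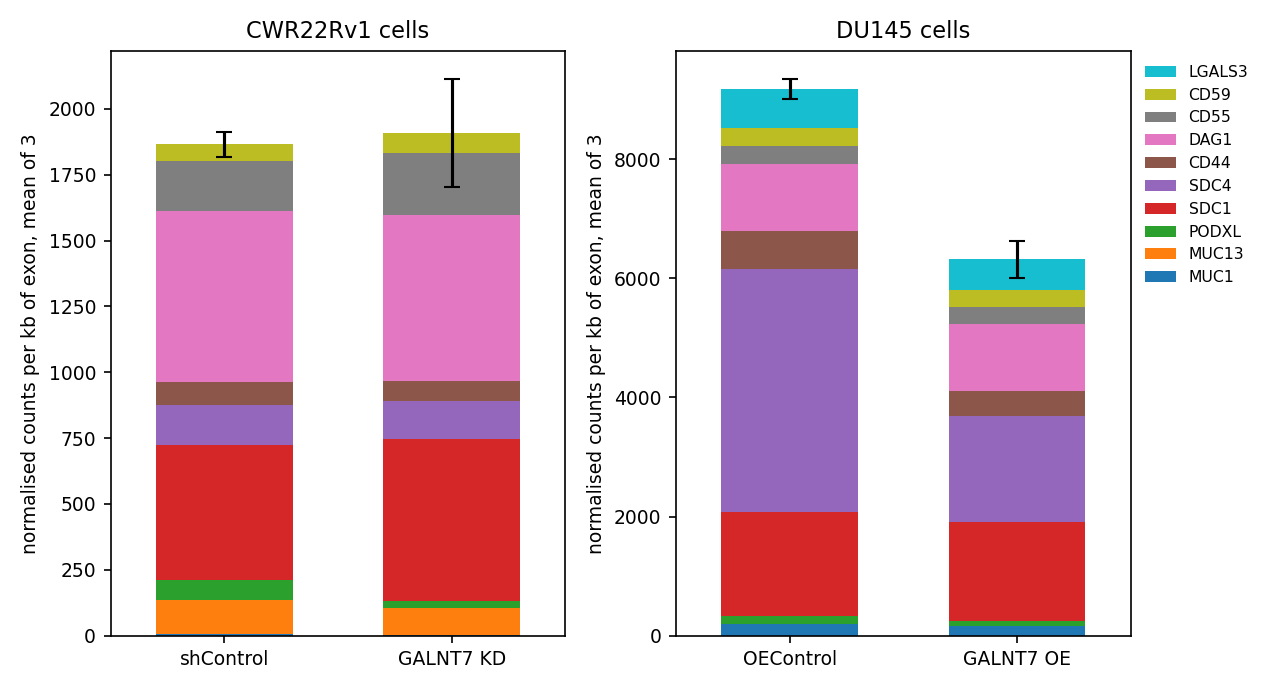
Mean normalised counts per kb of exon of the 10 genes, stacked, in CWR22Rv1 cells on the left and DU145 cells on the right; each bar is the mean of 3 libraries and its error bar the SD of the sum. The sum is 1865 and 1909 in CWR22Rv1 cells and 9184 and 6321 in DU145 cells, where the SDC4 segment shrinks from 4081 to 1780.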

How the data were processed

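The authors deposited normalised counts (a signal in which reads on each gene are divided by a size factor per library) for 59424 genes per cell line. Per the labels, total RNA went into stranded mRNA libraries, and the submitters' processing notes name FastQC, Salmon, DESeq2, R 3.5.3 and hg38. In CWR22Rv1 all values were whole multiples of 1 read (100% within 0.01), so reads were recovered. This was not done for DU145, whose depth is not given here. Names, positions and exon lengths came from GENCODE 29 (94.4% of identifiers). The test was limma 3.58.1 (lmFit, then eBayes with a trend, R 4.3.3) on log2(normalised count + 1), which understates changes of low genes, for a mean of at least 5 over 6 libraries, with Benjamini-Hochberg adjustment. The cell lines were fitted separately. edgeR 4.0.16 and DESeq2 1.42.0 were alternatives. Each was tested on simulated data, edgeR and DESeq2 in the CWR22Rv1 setting only. The simulation gave every gene the same spread and changed only genes with a control mean of at least 50. It therefore cannot show how often calls are wrong in these libraries. The members, lists and tests were chosen with earlier results of these data known. Named were the members, GALNT7, cell type markers, the 3 genes most correlated with a member, and up to 4 called genes per list with the largest change and a mean of at least 50. GPC3, SDC3, LGALS8, ESRP2 in knockdown, the neighbours of MUC1 and overlapping genes were named after their values were seen. No replicate pair was as close as sampling noise (mean chi-square per gene 9.38 to 26.0).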

Additional observations from a re-analysis of the deposited data

How the results depend on the processing

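Of 270 values of members under the alternatives, 253 kept their direction and their side of the threshold, 3 lost the call (LGALS3 in overexpression, given above), 5 gained it and 9 turned direction. In knockdown the number of members called was 2 with a mean of at least 20 and 3 with DESeq2, and 1 to 2 with a replicate left out. The number of genes called there was 996 without a trend, 2642 with DESeq2, 392 at an adjusted p of 0.01 and 525 to 1332 with a replicate left out (545, 818 and 671 without shControl 1, 2 and 3, and 525 and 1022 without GALNT7 KD 1 and 2), against 1623. In overexpression it was 5303 at an adjusted p of 0.01, against 8132, and 6749 to 7610 with a replicate left out, with 3 to 5 members called. None of the values that turned direction had been called. With a replicate left out, MUC1 ranged from -1.39 to 0.71 and DAG1 from -0.16 to 0.023 in knockdown, and CD59 from -0.0504 to 0.0079 and DAG1 from -0.0373 to 0.0418 in overexpression, where CD59 was 0.0124 after median centring and DAG1 -0.10 after upper-quartile rescaling. The causes were not tested. Same-numbered libraries correlated only weakly. In knockdown -0.011 and -0.00568 lay within the range of the other pairs (-0.0644 to 0.0737), and 0.0747, between the second libraries, just above it. In overexpression the same-numbered pairs lay between 0.02 and 0.04, above all other pairs (-0.0447 to 0.00416). The cause of this difference was not tested. In a fit with a replicate block, 1 and 4 members and 1002 and 7405 genes were called, and no member's call changed. edgeR and DESeq2 were not run for DU145. With 3 libraries per group, single libraries decide wide values such as those of MUC1.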
